A study of Homo sapiens with 2 samples.

Results

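HOX cluster genes were examined in HEK-293 cells, a line made from human embryonic kidney, after transfection with either a scrambled oligonucleotide or a mimic of miR-204. The genes were all those whose name on the array is HOXA, HOXB, HOXC or HOXD followed by a number, taken from probes that are not controls. All 39 human HOX genes were on the array, with 52 of its 41000 probes and 1 spot per probe. They were 39 of 30484 gene names on the array. The names were matched by their letters, and no measured value entered the match. The genes to examine were, however, chosen with earlier results of these data known.

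HOX genes encode homeodomain transcription factors that give cells their position along the head-to-tail axis of the embryo. They stand in 4 clusters, and genes with the same number in different clusters are paralogues. Low numbers lie at the 3′ end of a cluster and act early and anteriorly, and high numbers lie at the 5′ end and act later and more posteriorly. HOX proteins bind DNA with PBX and MEIS cofactors, and Polycomb and Trithorax group proteins keep clusters silent or active. In the developing kidney, genes of paralogue number 11 are needed for branching of the ureteric bud, and adult cells often keep the HOX pattern of the place they came from.

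The control and miR-204 RNAs competed for the same probes on 2-colour Agilent arrays. Each culture had received oligonucleotide at 75 nM for 48 h, the control a scrambled oligonucleotide and the other a miR-204 mimic, a synthetic RNA that acts as the miRNA. The first array carried control RNA in Cy3 and miR-204 RNA in Cy5, and the dye-swap array, called the swapped array here, carried them the other way round. As no separate cultures are named, both arrays were counted as 1 replicate, and no difference below could be tested against the spread between cultures. Each ± is the SD of the 2 arrays, and it is taken to hold dye and array error alone.

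Spots well above background, the scanner software's mark for a signal clearly over its local background, made up 58.3% to 66.9% of the 43376 spots in the 4 channels, as an array and dye are called here. None of the 52 HOX probes had an outlier flag or was saturated. Of 8 genes commonly found in HEK-293 cells, 7 were well above background, among them the neurofilament genes NEFL, NEFM and INA. PAX2, a kidney progenitor gene, was not. On both arrays in at least 1 RNA, 61.1% of all gene names were, and 73.5% of those with a RefSeq mRNA accession. The 7 of 8 is therefore a weak check of the cell line. NEFM was lower and INA higher by 1.5-fold in the mean, at -0.63 and 0.61, with the same sign on both arrays. Of 14 markers of other cell types, 4 were well above background, COL1A1, DCN and ACTC1 among them, and the other 10 were not, PTPRC of blood cells, PECAM1 and CDH5 of endothelium and ALB of liver among them. The mean log2 miR-204 over control was -0.48 for DCN, 0.05 for COL1A1 and 0.02 for ACTC1.

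The mature miRNA behind the treatment is shown with some of the miRNAs that are made from within HOX clusters. They are shown because the clusters are themselves sources of miRNAs that act on HOX transcripts. The list is not complete, as miR-10b-5p had no entry among the sequences used. Capitals mark the seed, bases 2 to 8, which pairs with target mRNAs. The sequences are those of RefSeq on GRCh38.p14. The sample labels do not say which arm the mimic copies, and the 5p arm is shown.
miR-204-5p: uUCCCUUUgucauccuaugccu
miR-211-5p: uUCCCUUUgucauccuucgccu
miR-10a-5p: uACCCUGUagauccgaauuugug
miR-196a-5p: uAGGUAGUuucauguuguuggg
miR-196b-5p: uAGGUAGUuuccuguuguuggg
miR-615-3p: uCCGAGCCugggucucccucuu
The gene of miR-204 lies within TRPM3 on chromosome 9, with the mature sequence at chr9:70810031-70810052 on the minus strand. miR-211-5p shares all 7 seed bases with it. None of the miRNAs shown from HOX clusters has this seed. The miR-10a seed equals it at 5 of 7 positions, and the seeds of miR-196a, miR-196b and miR-615-3p at 1 of 7 each. miR-10a lies between HOXB4 and HOXB5 at chr17:48579904-48579926, and miR-196b between HOXA9 and HOXA10 at chr7:27169528-27169549, both on the minus strand. miR-196a has genes in the HOXB cluster, between HOXB9 and HOXB13 at chr17:48632532-48632553 on the minus strand, and in the HOXC cluster, between HOXC10 and HOXC9 at chr12:53991762-53991783 on the plus strand. miR-615-3p lies inside the spans of HOXC4 and HOXC5 at chr12:54034010-54034031 on the plus strand. miR-196 is known to cut HOXB8 mRNA. The levels of the miRNAs themselves were not measured on these arrays.

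HEK-293 cells gave a signal for most of the 39 HOX genes. A total of 33, or 84.6%, passed the background mark on both arrays for at least 1 of the RNAs. By the same rule 61.1% of all gene names passed, and 73.5% of the gene names with a RefSeq mRNA accession. All 11 HOXA genes passed, as did 9 of 10 HOXB, 6 of 9 HOXC and 7 of 9 HOXD genes. Of the 33, 32 had a probe that passed in all 4 channels.

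**Figure D1:**
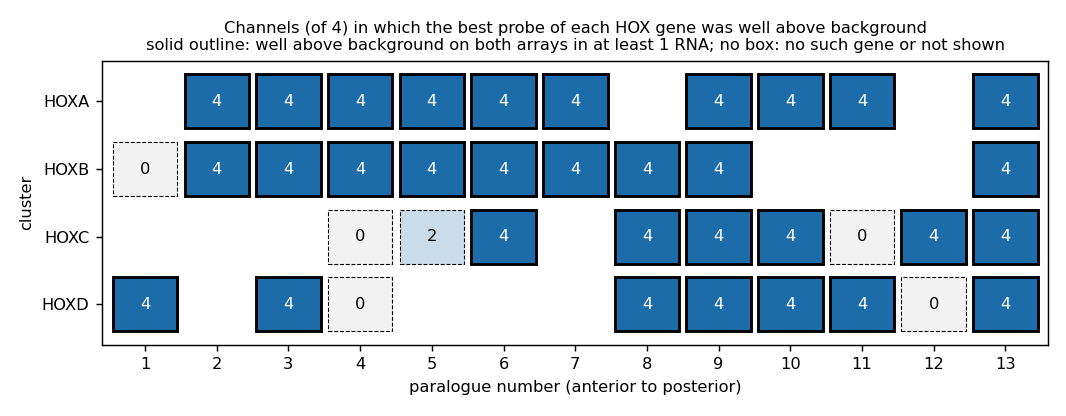
Number of channels, of 4, in which the best probe of each of 38 HOX genes was well above background, with clusters as rows and paralogue numbers as columns. Solid outlines mark 32 genes well above background on both arrays in at least 1 RNA, and the 6 dashed boxes lie in HOXB, HOXC and HOXD.

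The genes that did not pass were HOXB1, HOXC4, HOXC5, HOXC11, HOXD4 and HOXD12, each with 1 probe. Every gene of paralogue numbers 2, 3, 6, 7, 8, 9, 10 and 13 passed, while of the 4 genes numbered 4 only HOXA4 and HOXB4 did. HOXC4 and HOXC5 are neighbours at the 3′ end of the HOXC cluster. HOXB1, which patterns the hindbrain, had processed signals of 4.31 in control RNA and 3.70 in miR-204 RNA on the first array and of 2.32 and 5.17 on the swapped array. HOXC5 was brighter, at 14.8 and 30.5 on the first array and 18.9 and 12.2 on the swapped array. Its probe was well above background in Cy5 on both arrays and in Cy3 on neither, so the higher RNA changed with the dye. Of 40872 unflagged probes on the array 787 showed this pattern, and 0 showed the reverse one. A HOXB3 probe did the same. No fold is given for these 6 genes.

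In the RefSeq promoter table of GRCh38.p14, 20 of the 39 genes had at least 1 start, among them 5 of the 6 genes without a passing signal. Their sequences are shown so that the genes below background can be compared with those above it. The 250 bases before the start are printed in the direction of the gene, and capitals mark CG dinucleotides, whose density sets CpG island promoters apart.
HOXC4 and HOXC5, chr12:54016638-54016887, plus strand: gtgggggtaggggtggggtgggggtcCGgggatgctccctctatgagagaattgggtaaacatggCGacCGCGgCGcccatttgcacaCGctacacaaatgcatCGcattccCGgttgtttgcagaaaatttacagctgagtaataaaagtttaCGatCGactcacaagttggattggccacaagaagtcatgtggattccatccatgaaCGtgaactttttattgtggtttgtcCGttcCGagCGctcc
HOXB1, chr17:48531012-48531261, minus strand: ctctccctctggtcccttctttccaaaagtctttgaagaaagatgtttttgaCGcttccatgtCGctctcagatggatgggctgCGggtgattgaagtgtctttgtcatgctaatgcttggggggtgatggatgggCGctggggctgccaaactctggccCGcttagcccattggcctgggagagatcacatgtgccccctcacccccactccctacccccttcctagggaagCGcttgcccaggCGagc
HOXD12, chr2:176099545-176099794, plus strand: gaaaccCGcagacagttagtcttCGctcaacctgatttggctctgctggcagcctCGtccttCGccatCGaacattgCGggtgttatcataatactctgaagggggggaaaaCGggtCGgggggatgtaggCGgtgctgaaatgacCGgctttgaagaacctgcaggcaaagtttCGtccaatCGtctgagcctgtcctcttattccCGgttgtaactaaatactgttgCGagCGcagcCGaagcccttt
HOXD4, chr2:176151300-176151549, plus strand: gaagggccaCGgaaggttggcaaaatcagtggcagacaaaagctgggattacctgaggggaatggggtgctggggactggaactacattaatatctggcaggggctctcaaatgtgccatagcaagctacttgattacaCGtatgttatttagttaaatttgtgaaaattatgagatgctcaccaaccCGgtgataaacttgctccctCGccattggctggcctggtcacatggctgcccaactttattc
HOXC4 and HOXC5 have the same start in this table, so they are represented by 1 window. The window before HOXD4 held 4 CG dinucleotides, that before HOXB1 7, the shared HOXC window 14 and that before HOXD12 16. The 22 windows of the 15 HOX genes above background had a median of 21 and ranged from 0 to 40, with the 0 at 1 of the HOXA3 starts and the 40 at HOXA13. These windows were all of HOXA and HOXD genes, several of them HOXA3 starts. The windows below background were of HOXB, HOXC and HOXD genes, so the comparison is also one between clusters. Across 34943 windows of all genes the median was 11, and 65.6% held 5 or more, against 88.5% of the 26 HOX windows. The ranges of the windows above and below background overlapped, and these counts describe sequence alone.

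Log2 miR-204 over control was then taken for the 33 genes above background, with counted probes of a gene averaged. It compares the RNAs after quantile normalization of the log2 processed signals across the 4 channels, so it can differ slightly from the ratio of the signals quoted. A gene was called at 2-fold in the mean of the arrays with the same sign on both. No HOX gene was lower by this rule and none was higher, where 0.452% of 18585 gene names passed it downwards and 0.151% upwards. At 1.5-fold, 3 of 33 HOX genes were higher, HOXB8, HOXB3 and HOXB9, and 0 were lower, where 1.44% of gene names were higher and 2.06% lower. With the swapped array left out, 5 genes were higher by 1.5-fold and 2 were lower, HOXA4 and HOXA6. With the first array left out 2 were higher, HOXB2 and HOXD9, and 0 lower. The ratios varied more on the first array, with an SD of 0.43 against 0.28 over 23159 probes above background in all 4 channels. Shares of all gene names or probes past 1.5-fold on 1 array, or on each array, are not given here, so these counts have no background beside them. No HOX gene, with its probes averaged, passed 1.5-fold on each array, while 1 HOX probe did, a probe of HOXA3 described below. With normexp background correction and loess in place of quantile normalization, no HOX gene was past 1.5-fold in the mean, and HOXB9 came nearest at 0.57.

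Smaller differences leaned to the miR-204 RNA. The median of the 33 HOX genes was 0.12 in the mean of the arrays, 0.17 on the first and 0.14 on the swapped array, while over all gene names the medians were 0.002, 0.02 and -0.004. A total of 16 HOX genes, or 48.5%, were higher on both arrays, against 24.5% of all gene names. Only 4, or 12.1%, were lower on both, against 22.8% of all gene names, and 13 had opposite signs. The median of the HOX genes was 0.084 under loess with normexp, 0.048 under loess with no background correction and 0.063 with no filter on dim probes. No test stands behind these shares, since the arrays were counted as 1 replicate. Under loess, with normexp background correction or with none, 14 HOX genes were higher on both arrays, beside 21.2% and 20.9% of gene names. The lean was uneven between clusters. HOXB genes were higher on both arrays in 7 of 9 cases, HOXA genes in 4 of 11, HOXC genes in 3 of 6 and HOXD genes in 2 of 7. The 7 include HOXB13, at 0.04 and 0.06 on the arrays. Under both loess settings 5 of 9 HOXB genes were higher on both arrays, HOXB2 and HOXB13 being the ones that dropped out. The median over HOXB genes was 0.41, against 0.06 for the HOXA genes, 0.07 for HOXC and 0.04 for HOXD.

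**Figure D2:**
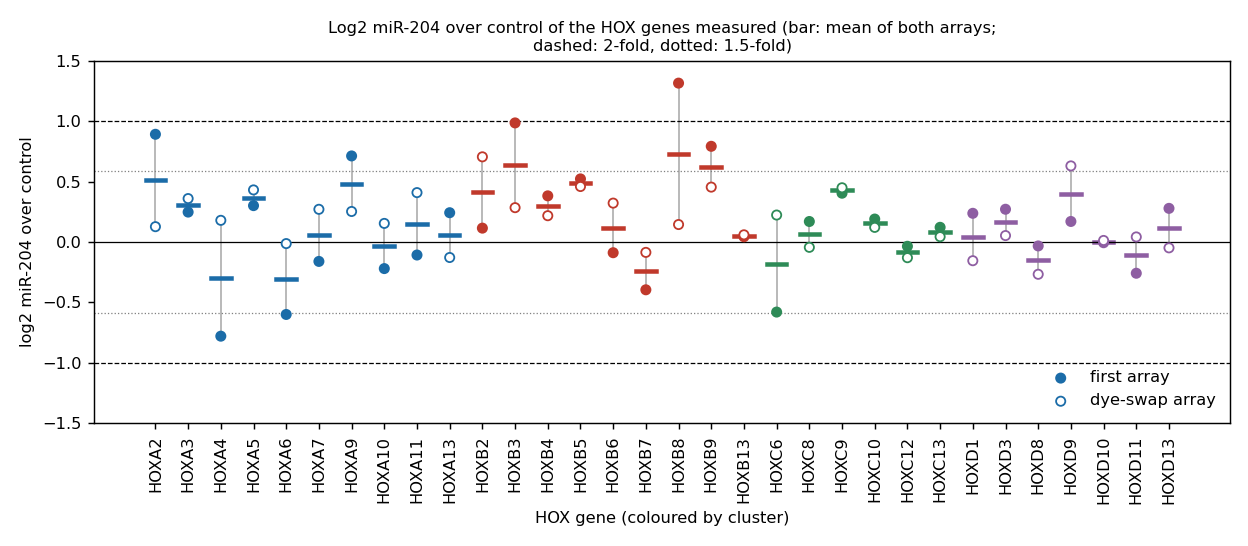
Log2 miR-204 over control of 32 HOX genes above background, on the first array (filled) and the swapped array (open), with a bar at the mean of both, coloured by cluster. The mean of every gene drawn lies within the dashed 2-fold lines, and 8 of 9 HOXB means lie above 0.

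In the HOXB cluster, the 3′ genes HOXB2 to HOXB5 were all higher on both arrays, HOXB2 not under loess, where with normexp it was at -0.01 on the first array. HOXB2, active in the hindbrain, had 2 probes above background in all 4 channels. The brighter one gave 4489 in control RNA and 4297 in miR-204 RNA on the first array and 2475 and 4392 on the swapped array, so its difference came from the swapped array. The other gave 192.8 and 234 on the first array and 111.7 and 169 on the swapped array, higher in the miR-204 RNA on both. Over both probes the log2 ratio of HOXB2 was 0.11 on the first and 0.71 on the swapped array, with a mean of 0.41 ± 0.42.

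HOXB3, needed with its paralogues for thymus and parathyroid development, was measured by 2 probes, and the remaining one passed in Cy5 alone. Its brightest probe, at chr17:43981267-43981326 on hg18, gave 2507 in control RNA and 5126 in miR-204 RNA on the first array. On the swapped array it gave 2083 and 2656. The other probe gave 121.8 and 226 on the first array and 103.2 and 121 on the swapped array. Both probes were higher in the miR-204 RNA on both arrays and differed more on the first. The gene's log2 ratio was 0.99 on the first and 0.28 on the swapped array, and the mean of 0.64 ± 0.50 is 1.55-fold.

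HOXB4, which can expand blood stem cells, gave 1314 and 1718 in control and miR-204 RNA on the first array and 953 and 1105 on the swapped array, with log2 ratios of 0.38 and 0.22. Its other probe was above background on the swapped array in both RNAs and on the first array in neither, and was not counted. HOXB5, a gene of the enteric nervous system and the vessels, gave 1886 and 2659 on the first array and 1297 and 1787 on the swapped array. Its log2 ratios of 0.52 and 0.46 were close to each other, and its mean of 0.49 ± 0.04 was the most even between arrays among the HOX genes with a mean above 0.45.

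The middle HOXB genes did not share this. HOXB6 had 2 probes that disagreed. The brighter gave 11487 and 13147 on the first array and 8313 and 9845 on the swapped array, with log2 ratios of 0.23 and 0.24. The other had -0.41 on the first array and 0.41 on the swapped array, so that the Cy3 channel was the higher on both arrays. HOXB7, which marks the ureteric bud of the kidney, was the sole HOXB gene with a mean below 0. Its counted probe gave 34.0 and 26.1 on the first array and 35.6 and 33.0 on the swapped array, low signals with a mean log2 ratio of -0.24 ± 0.22, and its other probe passed in no channel.

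HOXB8 and HOXB9 stand next to each other at the 5′ side of the main HOXB group. HOXB8, a gene of myeloid progenitors and a known target of miR-196, gave 202.5 in control RNA and 506 in miR-204 RNA on the first array, the widest ratio of any HOX probe above background on either array. The swapped array gave 185.6 and 205. The log2 ratio was therefore 1.32 on the first array, which is 2.49-fold, and 0.14 on the swapped array, which is 1.11-fold. The mean of 0.73 ± 0.83 rests on the first array, and without that array HOXB8 was at 0.14. HOXB9, which patterns the thorax, gave 3268 and 5541 on the first array and 1924 and 2645 on the swapped array. It was higher in the miR-204 RNA on both, at 0.79 and 0.45, with a mean of 0.62 ± 0.24 or 1.54-fold. HOXB13, a prostate gene that lies apart from the rest of the cluster, had 2 probes with means of 0.02 and 0.08, each with opposite signs on the arrays, which averaged to a gene value just above 0 on both.

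**Figure D3:**
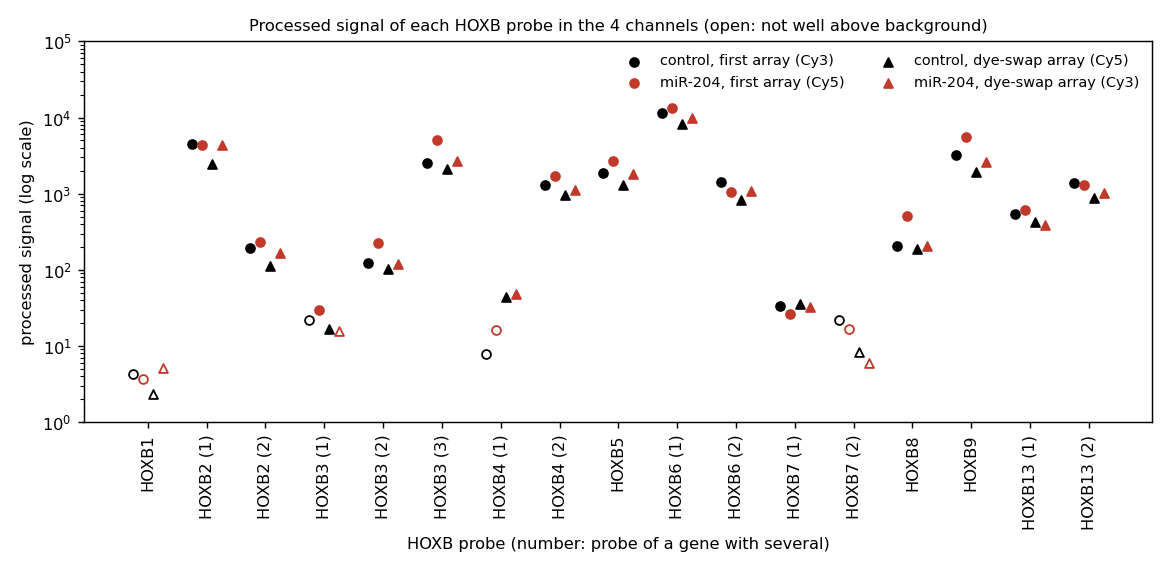
Processed signal of each HOXB probe on a log axis in the 4 channels, with circles for the first array and triangles for the swapped array, black for control and red for miR-204, and open symbols where a channel was not well above background. HOXB3 (probes 2 and 3), HOXB5, HOXB8 and HOXB9 show red above black for both symbols, and the gap of HOXB8 is wide for the circles alone, at 202.5 against 506.

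Paralogue number 9 was the one number at which all 4 clusters have a gene and all were higher on both arrays. HOXA9, which drives blood progenitors and is well known from leukaemia, gave 2753 and 4433 in control and miR-204 RNA on the first array and 2230 and 2662 on the swapped array. HOXC9, which sets the thoracic motor neuron column, gave 3493 and 4520 on the first array and 2612 and 3587 on the swapped array. HOXD9 gave 362 and 403 on the first array and 228 and 355 on the swapped array. The miR-204 RNA was the higher in each of these pairs, as it was for HOXB9. Mean log2 ratios were 0.48 ± 0.33 for HOXA9, 0.43 ± 0.03 for HOXC9 and 0.40 ± 0.33 for HOXD9. HOXA9 differed more on the first array and HOXD9 more on the swapped array, and HOXC9 moved alike on both, at 0.40 and 0.45.

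The other number held by all 4 clusters and measured in full was 13. HOXA13 and HOXD13, genes of the digits and the genital tract, had means of 0.06 and 0.12 with opposite signs on the arrays, HOXB13 had 0.05 and HOXC13, a hair follicle gene, 0.08. None of these 4 means was past 0.12. Numbers 2, 3 and 5 were also higher on both arrays for every gene above background, with medians of 0.46, 0.30 and 0.43 over 2, 3 and 2 genes. Numbers 1, 6, 7, 11 and 12 had none higher on both arrays. By region of the axis, 5 of 7 anterior genes (numbers 1 to 3), 4 of 12 central genes (4 to 8) and 7 of 14 posterior genes (9 to 13) were higher on both, beside 24.5% of all gene names.

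**Figure D4:**
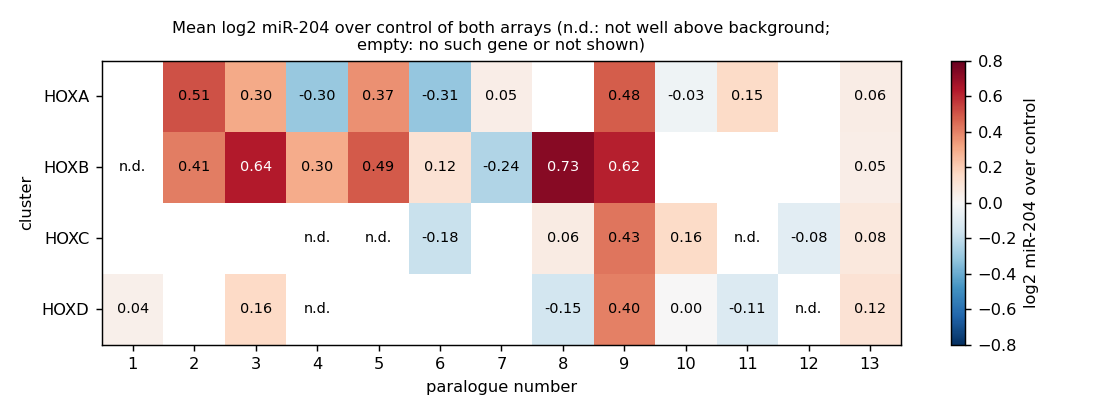
Mean log2 miR-204 over control of both arrays for 32 HOX genes, with clusters as rows and paralogue numbers as columns, red where higher and blue where lower in the miR-204 RNA. The column of number 9 is red in all 4 clusters, from 0.40 to 0.62, and the column of number 13 is pale, from 0.05 to 0.12.

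Among the HOXA genes, HOXA2, which gives the second branchial arch its identity, had the highest mean. It gave 89.96 and 166 in control and miR-204 RNA on the first array and 90.87 and 99.2 on the swapped array, with a mean of 0.51 ± 0.54 that comes mostly from the first. HOXA5, needed for the lung, gave 2158 and 2619 on the first array and 1477 and 1993 on the swapped array, an even 0.30 and 0.43. HOXA4 and HOXA6 were lowest, with means of -0.30 and -0.31. HOXA4 gave 1598 and 916 on the first array and 940 and 1062 on the swapped array, so the lower RNA changed between arrays. HOXA6 gave 245 and 160 on the first array and almost equal values, 192.3 and 191, on the swapped array.

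The 2 HOXA3 probes disagreed in size and in direction. The probe at chr7:27116444-27116503 on hg18 was very bright, at 125564 in control RNA and 93019 in miR-204 RNA on the first array and 93996 and 95957 on the swapped array. Its log2 ratios were -0.38 and 0.09. The probe at chr7:27113296-27113355 gave 286 and 521 on the first array and 204 and 316 on the swapped array, higher in the miR-204 RNA on both and past 1.5-fold on each, at 0.88 and 0.63. Its mean of 0.75 is the highest of any HOX probe above background, and averaging with the bright probe brought the gene to 0.30. With the brightest probe alone HOXA3 was at -0.14. HOXA3 has several transcript starts, and which transcripts each probe reads was not tested.

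HOXA7, HOXA11 and HOXA13 stayed near 0 in the mean, at 0.05, 0.15 and 0.06, each with opposite signs on the arrays. HOXA11, a kidney and uterus gene, gave 46.2 and 43.1 on the first array and 27.3 and 35.5 on the swapped array, all low. HOXA10, which patterns the uterus, had 3 probes. Those at chr7:27177760-27177819 and chr7:27178150-27178209 had means of 0.12 and 0.07. The third carries the name HOXA10, but the files place it at chr12:52709820-52709879 on hg18, in the HOXC cluster between the HOXC6 and HOXC5 probes, and their description of it names a HOX C6 transcript. It gave 829 and 527 on the first array and 631 and 653 on the swapped array, a mean of -0.29. With all 3 probes HOXA10 was at -0.03, and without the misplaced one at 0.10.

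Apart from HOXC9, the HOXC genes moved little. HOXC10, of the lumbar motor neurons, had a mean of 0.16 ± 0.05 over 2 probes, and HOXC13 and HOXC12 had 0.08 and -0.08. HOXC8, of the brachial motor neurons, had 2 probes of opposite direction, at -0.35 and -0.19 on the arrays for 1 and 0.69 and 0.10 for the other, both with signals between 123 and 344. The gene mean of 0.06 hides that. HOXC6 gave 51.3 and 34.7 on the first array and 29.2 and 33.1 on the swapped array, with opposite signs.

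HOXD genes other than HOXD9 lay between -0.15 and 0.16. HOXD10 was the most level, with 3855 and 3786 in control and miR-204 RNA on the first array and 2560 and 2575 on the swapped array, log2 ratios of -0.01 and 0.01. HOXD3 was slightly higher on both, at 0.27 and 0.05, and HOXD8 slightly lower on both, at -0.03 and -0.27. HOXD11, which acts with HOXA11 in the kidney, had -0.26 on the first array and 0.04 on the swapped array. HOXD1 and HOXD13 had means of 0.04 and 0.12, each higher on the first array and lower on the swapped array.

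Probe by probe, 42 HOX probes were above background in all 4 channels. Of these, 20 were higher on both arrays, 5 lower on both, 5 higher on the first alone and 12 higher on the swapped array alone. Across all 23159 such probes on the array, 25.2% were higher on both and 21.9% lower on both. The Pearson correlation of the 2 arrays over the 42 HOX probes was 0.24, where it was -0.08 over the 23159 probes. The points share 2 hybridizations and several share a gene. Of 9 HOX genes with 2 or more counted probes, 5 had probes of 1 direction in the mean and 4 had probes of both, HOXA3, HOXA10, HOXB6 and HOXC8.

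**Figure D5:**
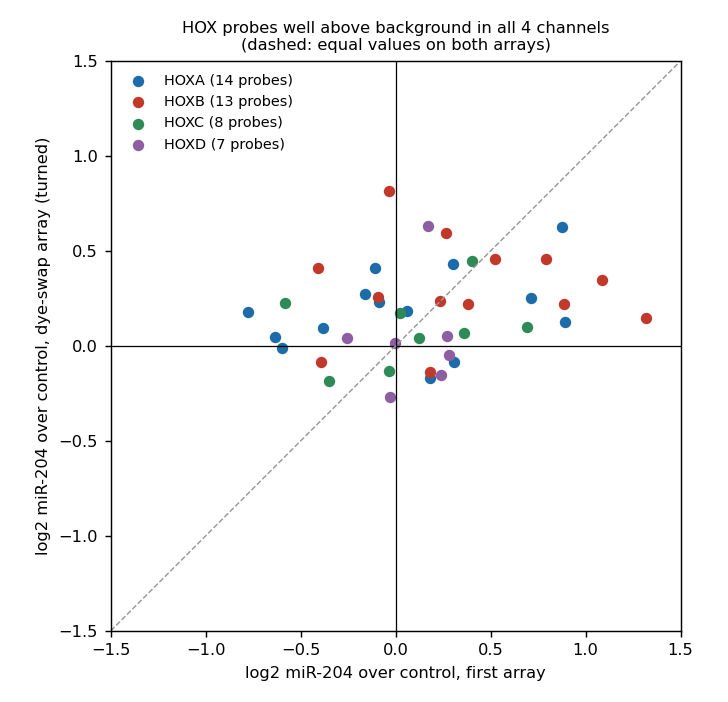
Log2 miR-204 over control of the 42 HOX probes above background in all 4 channels, first array on the horizontal and turned swapped array on the vertical axis, coloured by cluster. The upper right, higher on both arrays, holds 20 probes and the lower left holds 5.

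Apart from CRABP1, none of the genes listed as working with or upon HOX genes passed 1.5-fold. All 9 TALE cofactor genes (PBX, MEIS and PKNOX) were above background, 0 passed 1.5-fold, and 4 were higher and 0 lower on both arrays. Above background were 61.1% of all gene names, and 73.5% of those with a RefSeq mRNA accession. Of all gene names, 1.44% were higher and 2.06% lower by 1.5-fold, so that 0 of 9 is near the background, and 24.5% were higher and 22.8% lower on both arrays. PKNOX1, which binds DNA with PBX, had the highest mean at 0.37, from 3 probes with means of 0.31, 0.33 and 0.48. MEIS2 had 0.28, PBX4 0.21, MEIS1 0.09, PBX3 0.05 and PKNOX2 0.01, and MEIS3 and PBX2 had -0.14 and -0.13. None of these gene means was below -0.15, and MEIS1, PBX2, MEIS3 and PKNOX2 had opposite signs on the arrays. Probes of PBX2 went both ways, with means of 0.15 and -0.40, as did those of MEIS3, with -0.32 and 0.04.

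The counts above background of the next lists likewise stand beside 61.1% of all gene names, and 73.5% of those with a RefSeq mRNA accession. Of 21 Polycomb genes 19 were above background, with 0 past 1.5-fold. On both arrays 5 were higher and 0 lower, with a median of 0.002, and 5 of 19 is near the 24.5% of all gene names. EZH2, the main H3K27 methyltransferase, had 0.28 and -0.14 on the arrays. Of 12 Trithorax and MLL genes 11 were above background, with 0 past 1.5-fold, and 6 were lower on both arrays and 1 higher, beside 22.8% and 24.5% of all gene names, with a median of -0.10. MLL (now KMT2A), the H3K4 methyltransferase that keeps HOX genes active, had -0.18 and -0.43. Of 15 retinoic acid genes, whose ligand turns on 3′ HOX genes in the embryo, 14 were above background and 1 passed 1.5-fold, lower, CRABP1, a retinoic acid binding protein. Its counted probe had log2 ratios of -0.29 and -1.98 on the arrays. In the miR-204 RNA of the swapped array it did not pass the background mark, so its mean of -1.14, lower by more than 2-fold, rests on a signal that has no measured level. CYP26A1, which breaks down retinoic acid, had 0.67 and 0.44. The homeobox neighbours and ParaHox genes were mostly below background, with CDX2, EVX1 and HLXB9 (now MNX1) measured of 8 on the array and 0 past 1.5-fold. EVX1, next to HOXA13, had -0.68 and 0.002.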

How the data were processed

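Both arrays hold RNA of HEK-293 cells given scrambled oligonucleotide or miR-204 mimic, as 1 dye swap. Per the methods, the authors extracted signals with Feature Extraction 9.5.3.1. The deposited processed signals are intensity values corrected for background and dye by that software, with flags for signals well above background. The deposited mean and background signals are uncorrected intensity values. The authors' log ratio is a log10 of Cy5 over Cy3, and the authors' series table holds log2 ratios of miR-204 over control after their quantile normalization in MATLAB, both used as alternatives. Control spots and 128 flagged probes were left out, spots of a probe averaged on the log2 scale, and the 4 channels quantile normalized (limma 3.58.1, R 4.3.3). A probe was counted when well above background on both arrays in 1 RNA or both, which left 25270 probes and 18585 gene names. The genes on the array are named as in the files, with positions on hg18. HOX genes were reported by name, with signals for those above background in all 4 channels, and from the other lists the cofactors and genes past 1.5-fold. A few other genes (NEFL, NEFM, INA, PAX2, the markers of other cell types, EZH2, MLL, CYP26A1 and EVX1) were named after their values were seen, as were the probes between HOX genes. The members and gene lists were chosen with earlier results of these data known. The arrays number 2, which limits the precision, and no test across conditions was possible with 1 replicate. The quantile step and call were tested on simulated data with large changes in brighter probes and no dye error. That does not test small or dye-affected ratios such as those of the HOX genes. Alternatives changed the background correction, normalization, filter, probe summary, threshold and arrays used. A few genes that enter the counts are not reported by name here.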

Additional observations from a re-analysis of the deposited data

How the results depend on the processing

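In the main setting 0 HOX genes were lower and 0 higher by 2-fold, the median of 33 genes was 0.12, and 33 of 39 genes were above background. The count lower by 2-fold was 0 under every alternative run. The count higher by 2-fold was 3 at a threshold of 1.5-fold, between 0 and 1 with 1 array left out (1, HOXB8, on the first array alone), and 0 otherwise. At 1.5-fold, 3 genes were higher and 0 lower, and without the swapped array 5 higher and 2 lower. The median was 0.084 with normexp and loess, 0.048 without background correction, 0.063 with no filter on dim probes, where 39 genes counted, and from 0.14 to 0.17 with 1 array left out, and stayed within the array spread otherwise. The cause was not tested. The number of genes above background ran from 30, with every probe of the gene required, to 36, with the software's weaker flag for a positive and significant signal, and was 34 with either array left out. The median over HOXB genes was 0.32 with normexp and loess, 0.32 without background correction and from 0.28 to 0.38 with 1 array left out. HOXB genes higher on both arrays numbered 5 of 9 under both of these loess settings and 6 with the brightest probe. Of 395 single gene values under 12 alternatives, 381 moved by less than the spread between the arrays. With 1 array left out a gene's value cannot move beyond this spread, whatever the data. Those values therefore say nothing about how stable the genes are, although they are among the 381. The 5 other normalizations include the log10 ratio and the processed signals without further normalization. Both are in effect the same ratio, with a HOX median of 0.106 under each, so the 5 are not all separate checks. Under all 5, 28 of 33 genes kept the sign of the mean. The 5 exceptions, HOXA10, HOXC6, HOXD1 and HOXD10 among them, had means within 0.18 of 0. Leaving out the misplaced HOXA10 probe was chosen after seeing the data. No paired analysis was possible because both arrays were taken to hold the same pair of RNAs. Low signal limits the 6 genes not above background, and HOXA11, HOXB7 and HOXC6 had low signals.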

Other observations

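The array also holds 23 probes that lie between the outermost HOX probes of a cluster on hg18 and carry other names, of which 19 were counted. Of these, 10 were higher on both arrays and 3 lower on both. Beside this, 25.2% of all probes above background in each of the 4 channels were higher on both arrays and 21.9% were lower. That filter is stricter than the one by which the 19 were counted. Some of them read the strand opposite to the HOX genes, where antisense transcripts are known. A match to the RefSeq gene table was found by accession or gene number for HOXA11S (now HOXA11-AS), LOC404266 (now HOXB-AS3), LOC401022 (now HAGLR), LOC401021 and PRAC (now PRAC1), and the other probes keep the name in the files.

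The largest difference in these stretches was at THC2679040, a transcript cluster at chr7:27165047-27165106 on the strand opposite to the HOX genes, between the HOXA7 and HOXA9 probes. It gave 355 in control RNA and 770 in miR-204 RNA on the first array and 341 and 595 on the swapped array, all well above background. Its log2 ratios of 1.12 and 0.80, with a mean of 0.96, were above those of HOXA7 (-0.16 and 0.27) and HOXA9 (0.71 and 0.25). It was past 1.5-fold on each array, as was 1 HOX probe, the dimmer one of HOXA3. BQ354462, opposite to HOXA3 at chr7:27113844-27113903 and within 1 kb of the HOXA3 probe that was higher on both arrays, had 0.73 and 0.34.

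HOXA11S, the antisense transcript of HOXA11, gave 5983 and 6678 in control and miR-204 RNA on the first array and 3954 and 5475 on the swapped array, with log2 ratios of 0.19 and 0.48. LOC404266, antisense in the HOXB cluster between the HOXB6 and HOXB7 probes, had 0.51 and 0.25. The lowest was A_32_P93584, a probe without a gene name between HOXB2 and HOXB3 on the opposite strand, at -0.25 and -0.73. Both HAGLR probes, next to HOXD3, had means within 0.02 of 0, and the means of both PRAC probes, next to HOXB13, lay between -0.05 and 0.03.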
